A study of Mus musculus with 14 samples.

Results

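Chromatin accessibility was described at 33 mouse genes of the red cell and platelet lineages, in stem cells and early progenitors of WT mice and of mice with Dnmt3a and Npm1 mutations of the kind found in leukaemia. The genes were 3 regulators used by both lineages (Zfpm1, Gfi1b and Nfe2), 17 erythroid genes and 13 megakaryocyte and platelet genes. A region was counted for a gene where it overlapped the gene's RefSeq bounds extended by 10 kb on each side and had a mean deposited signal of at least 50 over all libraries. That gave 199 of the 59189 regions tested in the series, at 30 of the 33 genes: 43 regions at the shared regulators, 111 at 16 of the 17 erythroid genes and 45 at 11 of the 13 platelet genes. One of them was shared by the neighbouring genes Pf4 and Ppbp. Car1, Gp6 and Treml1 had no tested region, and their strongest regions had mean signals of 37.2, 13.1 and 38.9. In all, 1097 regions of any level lay in the 33 windows. At the limit, the weakest regions kept lay at Myb (50) and Epb42 (50.14), and the strongest left out lay at Itga2b (49.64) and Clec1b (49.57). Of the 199 regions, 135 lay inside a member gene and 64 outside, and 42 of the 64 overlapped another gene.

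Red cells and platelets descend from a shared progenitor, and both lineages depend on the transcription factor GATA1, which acts with the cofactor FOG1 that Zfpm1 encodes. Gfi1b encodes a zinc-finger repressor that both lineages need. Nfe2 encodes a subunit of the factor NF-E2, which is required to form platelets and also binds control regions of globin genes. In stem cells and early progenitors many genes of mature blood cells are silent or weakly expressed while some of their regulatory DNA is already open.

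Accessibility was measured by ATAC-seq. A transposase cuts DNA where it is not packed away and tags the cut ends, so a region with more sequenced ends was more accessible. There were 14 libraries from sorted cells of 2 types. LT-HSC are long-term blood stem cells, and MPP3 are multipotent progenitors with a bias to the myeloid lineages. Donors were young C57BL/6J mice of 4 genotypes: Dnmt3a-flR878H/+;Npm1-frt/+ (called double-mutant here), Npm1-frt/+ (Npm1), Dnmt3a-flR878H/+ (Dnmt3a) and WT (Mx-Cre). MPP3 gave 1 double-mutant, 2 Npm1, 2 Dnmt3a and 2 WT libraries, and LT-HSC gave 2 double-mutant, 2 Npm1, 1 Dnmt3a and 2 WT libraries. Each recipient, a lethally irradiated young CD45.1 mouse, had been given 1000000 whole marrow cells. Every recipient, including those of WT marrow, received poly(I:C) 4 weeks later and tamoxifen after 4 more weeks, and marrow was taken 4 weeks after that. Mx-Cre is driven by the interferon-inducible Mx1 promoter, which is not specific to blood stem cells. The labels name Mx-Cre for WT alone, do not name the recombinase that acts on the frt allele, and do not say whether recipient cells were gated out. Whether replicates were different recipients is not given either, and the p-values then rest on the spread between libraries, which may be technical. In sorted populations, fewer cells with an open region and less opening in each cell cannot be told apart.

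Library totals of the deposited signal ran from 14683769 to 28748205. The share of that signal in tested regions ran from 31.8% to 63.1% over MPP3 libraries and from 25.5% to 56.5% over LT-HSC libraries, with the 2 lowest of all 14 in Npm1 LT-HSC. All values below are the deposited signal divided by a TMM factor of its library (normalized signal), and differences are log2 differences fitted by limma over all 59189 regions, with Benjamini-Hochberg adjusted p-values. A region was called at an adjusted p under 0.05. The sorted labels were checked on marker genes. Summed over 47 regions at 11 of 12 myeloid genes, the signal was 6352 to 9164 in MPP3 and 4372 to 6220 in LT-HSC, with no overlap, and 3 regions of Mpo, which encodes myeloperoxidase, were called higher in MPP3. Summed over 73 regions at 10 stem cell genes it was 7368 to 8622 in MPP3 and 7871 to 10679 in LT-HSC, where the 2 Npm1 libraries were lowest. Other lineages had sums of 3651 to 4414 in MPP3 and 4001 to 5511 in LT-HSC over 40 lymphoid regions (8 of 10 genes), 683 to 873 in MPP3 and 539 to 1079 in LT-HSC over 10 mast cell and basophil regions (3 of 8 genes), and 2572 to 6136 in MPP3 and 2299 to 4457 in LT-HSC over 38 niche regions (7 of 8 genes). No region of these 3 lists was called between the cell types, and their part in the results below was not tested.

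RefSeq promoter sequences (build GRCm38.p6, which is mm10) were held for 25 of the 33 genes, in 33 entries, each running from 250 bases before to 50 after a start site. Nfe2, Slc25a37, Ank1, Slc4a1, Car1, Car2, Itgb3 and Thbs1 had no entry. At 16 genes (18 entries) the start lay inside a tested region. The sequences below are those of 5 genes with results at or near the start given later: the shared regulators Zfpm1 and Gfi1b, the erythroid gene Tfrc (1 of its 2 entries) and the platelet receptor genes Gp9 and Gp1ba. They lie at chr8:122281891-122282190 (+ strand), chr2:28621933-28622232 (- strand), chr16:32608646-32608945 (+), chr6:87777820-87778119 (+) and chr11:70638872-70639171 (+). Capitals mark matches on either strand to GATAA, the core bound by GATA factors, and to CACCC, the core bound by KLF factors; the NF-E2 and AP-1 core TGANTCA had no match in these 5.
Zfpm1: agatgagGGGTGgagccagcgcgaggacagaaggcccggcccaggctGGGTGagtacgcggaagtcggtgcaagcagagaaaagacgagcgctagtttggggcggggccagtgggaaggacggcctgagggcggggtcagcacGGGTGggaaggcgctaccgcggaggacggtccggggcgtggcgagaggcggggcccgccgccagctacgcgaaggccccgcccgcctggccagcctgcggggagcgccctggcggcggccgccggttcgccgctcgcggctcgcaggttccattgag
Gfi1b: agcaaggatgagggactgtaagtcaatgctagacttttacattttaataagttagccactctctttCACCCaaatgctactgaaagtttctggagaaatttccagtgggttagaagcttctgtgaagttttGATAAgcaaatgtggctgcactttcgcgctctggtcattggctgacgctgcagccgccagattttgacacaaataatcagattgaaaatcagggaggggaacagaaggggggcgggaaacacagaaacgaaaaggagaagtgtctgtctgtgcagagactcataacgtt
Tfrc: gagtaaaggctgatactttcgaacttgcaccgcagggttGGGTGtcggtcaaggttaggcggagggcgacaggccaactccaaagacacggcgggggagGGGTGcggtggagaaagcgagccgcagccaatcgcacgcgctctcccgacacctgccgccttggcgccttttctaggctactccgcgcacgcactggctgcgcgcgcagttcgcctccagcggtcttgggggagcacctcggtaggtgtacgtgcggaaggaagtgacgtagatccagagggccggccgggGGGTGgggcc
Gp9: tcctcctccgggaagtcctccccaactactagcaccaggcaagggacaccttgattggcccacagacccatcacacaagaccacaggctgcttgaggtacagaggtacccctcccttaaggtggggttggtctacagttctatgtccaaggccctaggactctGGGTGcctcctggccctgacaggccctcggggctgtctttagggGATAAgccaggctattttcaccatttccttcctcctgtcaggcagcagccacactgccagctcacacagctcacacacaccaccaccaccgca
Gp1ba: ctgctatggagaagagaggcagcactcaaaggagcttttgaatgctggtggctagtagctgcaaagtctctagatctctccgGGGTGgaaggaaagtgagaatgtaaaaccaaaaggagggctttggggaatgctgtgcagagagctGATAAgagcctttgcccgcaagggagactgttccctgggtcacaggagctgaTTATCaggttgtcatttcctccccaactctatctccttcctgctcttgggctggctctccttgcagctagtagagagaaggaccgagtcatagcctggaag
The Zfpm1 and Tfrc windows each held 3 CACCC matches and no GATAA match, with GC contents of 73.7% and 66.0%. The Gfi1b and Gp9 windows held 1 match of each kind, and the Gp1ba window held 2 GATAA matches and 1 CACCC match. Over the 33 entries, 16 held GATAA, 20 held CACCC and 3 held TGANTCA. Among all 32851 promoter windows of this length, 25.4% held GATAA, 57.5% held CACCC and 7.8% held TGANTCA. A match is a run of letters and was not tested as a binding site.

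Between the cell types, 1 member region passed the test, and it lies inside Zfpm1, where the signal was lower in MPP3. Of the 29 Zfpm1 regions, 27 had a lower fitted signal in MPP3 than in LT-HSC, with a median log2 difference of -0.54, beside a median of 0.03 over all tested regions, of which 28134 were below 0. Over the 16 fits with an alternative scaling or with 1 library left out, the number below 0 was 25 to 28. Of the 27 regions, 24 were below 0 in all 16 fits and 3 were above 0 in at least 1, and both of the other regions were below 0 in at least 1. The 27 include weak regions that met the limit of 50 through LT-HSC. The region 28.2 kb after the start had deposited signals of 23 to 55 in MPP3 and 38 to 139 in LT-HSC. That at 39.4 kb had 8 to 97 in MPP3 and 16 to 164 in LT-HSC. The part of the filter in the count was not tested. In this comparison 82 regions were called in the whole series (0.139% of those tested), 66 higher in MPP3 (0.112%) and 16 lower (0.0270%). The called member region lies 26.8 kb after the Zfpm1 start site (build mm10, chr8:122308957-122310156, 1200 bases). The position within exons or introns was not assigned, since only gene bounds were at hand. Its normalized signal was 80.6 in double-mutant, 86.1 and 94.7 in Npm1, 78.1 and 25.9 in Dnmt3a and 72.6 and 70.0 in WT MPP3, against 245 and 328 in double-mutant, 170.5 and 156 in Npm1, 240.0 in Dnmt3a and 206 and 279.8 in WT LT-HSC. All 7 MPP3 libraries lay below all 7 LT-HSC libraries, and the lowest value by far was that of 1 Dnmt3a MPP3 library. The signal was 3.13-fold lower in MPP3, a log2 difference of -1.65 (SE 0.26, adjusted p = 0.0146) by limma. With single libraries left out in turn the difference was -1.83 to -1.43 and the adjusted p was 0.00339 to 0.104. It was above the threshold without LT-HSC Dnmt3a replicate B (0.0631), LT-HSC Npm1 replicate A (0.063), MPP3 WT replicate A (0.0553) or B (0.104), MPP3 Npm1 replicate A (0.0538) or B (0.0725), or MPP3 double-mutant replicate B (0.0515). It was also above it with no filter on signal (-1.53, adjusted p = 0.264 by limma) and with a covariate for the share of signal in tested regions (-1.56, adjusted p = 0.0667), with differences close to the -1.65 above.

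**Figure D1:**
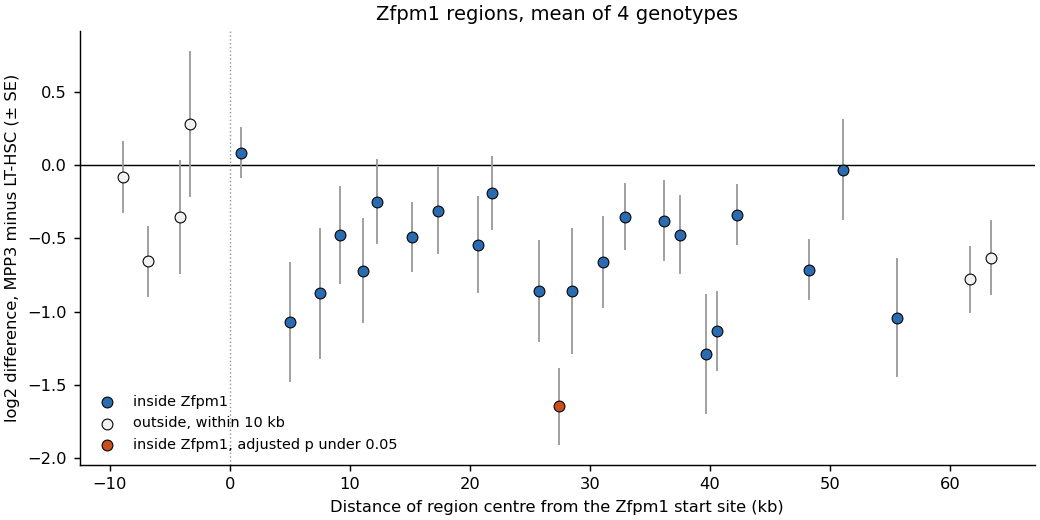
Log2 difference, MPP3 minus LT-HSC, over the mean of 4 genotypes, of the 29 Zfpm1 regions against the distance of each region's centre from the start site in kb; bars are limma standard errors, filled points lie inside the gene, open points lie outside it, and the single called region is orange. The start-site region lies near 0 (0.09), and every region inside the gene after it lies below 0.

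The start-site region of Zfpm1, which is also its strongest and includes the promoter sequence above (chr8:122279917-122286254), had no such difference. Its normalized signal was 1642 in double-mutant, 1241 and 1824 in Npm1, 1351 and 1073 in Dnmt3a and 1397 and 1918 in WT MPP3, against 1400.5 and 1419.9 in double-mutant, 975 and 715 in Npm1, 1699.7 in Dnmt3a and 2089.7 and 1766 in WT LT-HSC. The MPP3 values lay inside the LT-HSC range, and the lowest 2 came from Npm1 LT-HSC. The log2 difference was 0.09 (SE 0.17, adjusted p = 0.872). Differences between the cell types moved with the level of signal across the whole series: tested regions with a mean of 500 or more, the class of this region, had a median of 0.21 and 10.7% below 0, against a median of -0.06 and 54.8% below 0 among those of 50 to under 100. The other 22 regions inside the gene, all below 0, had weaker signal, with 11 in the class of 50 to under 100, 8 in that of 100 to under 200 (series median 0.01, with 48.5% below 0) and 3 in that of 200 to under 500 (series median 0.12, with 32.4% below 0). The part of the level in the contrast with the start site was not tested. Those 22 regions summed to 1942 in double-mutant, 1954 and 1838 in Npm1, 2578 and 1990 in Dnmt3a and 2778 and 1577 in WT MPP3, against 3348 and 3975 in double-mutant, 3759 and 2984 in Npm1, 2848 in Dnmt3a and 2744 and 3631 in WT LT-HSC. A single pair of libraries overlapped, since WT replicate A reached 2778 in MPP3 and 2744 in LT-HSC. Within genotypes, the MPP3 mean was below the LT-HSC mean in 20 of the 22 regions in double-mutant, 22 in Npm1, 12 in Dnmt3a and 20 in WT cells. In WT MPP3 the library with the higher sum held 40.6% of its signal in tested regions and that with the lower sum 63.1%, and in WT LT-HSC the library with the lower sum held 56.5% and the other 40.7%. The part of this share in the sums was not tested.

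**Figure D2:**
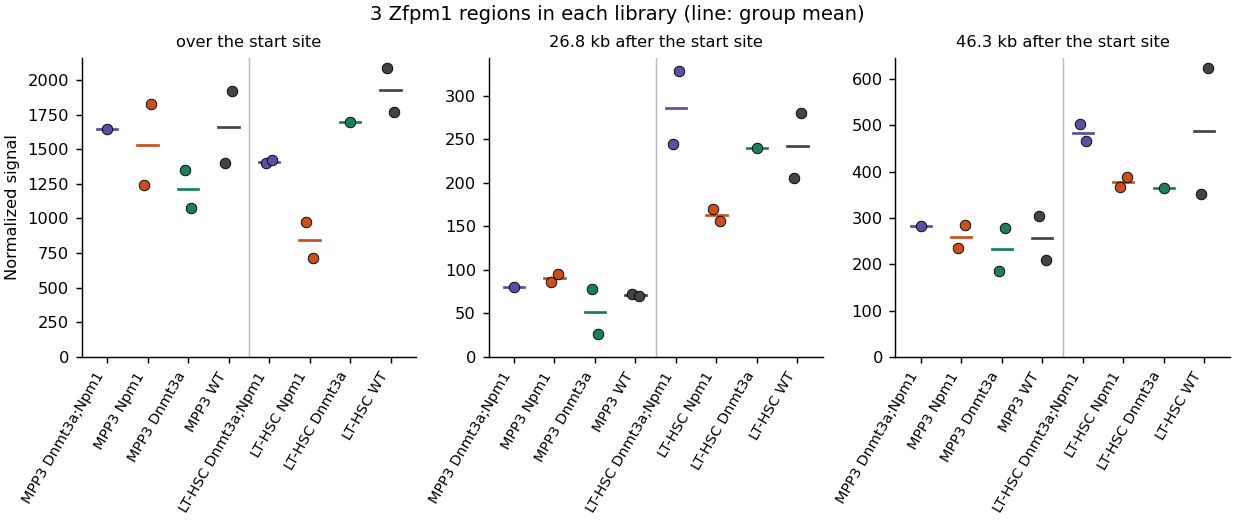
Normalized signal of each of the 14 libraries (points) and group means (lines) at 3 Zfpm1 regions, with MPP3 groups left of LT-HSC groups. The cell types overlap over the start site (1073 to 1918 in MPP3, 715 to 2090 in LT-HSC) and do not overlap at the regions 26.8 and 46.3 kb after it.

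Along the first stretch of the gene body the 9 regions had differences between -1.07 and -0.19, and none was called. The region 4.6 kb after the start (chr8:122286765-122287585) held 61.1 in double-mutant, 30.5 and 61.2 in Npm1, 7.1 and 66.5 in Dnmt3a and 54.2 and 32.4 in WT MPP3, against 74.1 and 55.0 in double-mutant, 103 and 86.9 in Npm1, 129 in Dnmt3a and 95.0 and 72.2 in WT LT-HSC, with a difference of -1.07 (SE 0.41). The region 6.7 kb after the start (chr8:122288825-122290464) held 59.3 in double-mutant, 51.2 and 39.1 in Npm1, 168 and 16.9 in Dnmt3a and 116 and 36.6 in WT MPP3, against 91.4 and 221 in double-mutant, 147 and 162 in Npm1, 52.4 in Dnmt3a and 50.4 and 227 in WT LT-HSC, with a difference of -0.88 (SE 0.45). The region 8.6 kb after the start (chr8:122290735-122291880) held 51.0 in double-mutant, 73.0 and 59.1 in Npm1, 101 and 40.5 in Dnmt3a and 74.9 and 41.4 in WT MPP3, against 56.9 and 91.7 in double-mutant, 126 and 142 in Npm1, 49.0 in Dnmt3a and 64.9 and 155 in WT LT-HSC, with a difference of -0.47 (SE 0.33). In each of these 3 the cell types overlapped. The region 10.3 kb after the start (chr8:122292461-122294003) held 56.5 in double-mutant, 89.4 and 54.8 in Npm1, 41.2 and 126 in Dnmt3a and 111 and 27.6 in WT MPP3, against 73.1 and 114 in double-mutant, 223 and 115 in Npm1, 71.0 in Dnmt3a and 95.0 and 166 in WT LT-HSC, with a difference of -0.72 (SE 0.36). The region 12.0 kb after the start (chr8:122294121-122294715) held 97.3 in double-mutant, 77.4 and 72.6 in Npm1, 71.0 and 66.5 in Dnmt3a and 94.5 and 75.3 in WT MPP3, against 69.1 and 103 in double-mutant, 141 and 57.3 in Npm1, 89.6 in Dnmt3a and 112 and 146 in WT LT-HSC, with a difference of -0.25 (SE 0.29). The region 14.1 kb after the start (chr8:122296215-122298478) held 160.3 in double-mutant, 129 and 146 in Npm1, 275 and 169 in Dnmt3a and 285 and 126 in WT MPP3, against 413 and 317 in double-mutant, 353 and 194 in Npm1, 173 in Dnmt3a and 242 and 203 in WT LT-HSC, with a difference of -0.49 (SE 0.24). The third of these was the strongest region of the stretch, and its highest value came from a double-mutant LT-HSC library. The region 16.8 kb after the start (chr8:122298965-122300071) held 90.8 in double-mutant, 76.3 and 93.9 in Npm1, 115 and 57.4 in Dnmt3a and 157 and 67.4 in WT MPP3, against 79.2 and 196 in double-mutant, 99.3 and 103 in Npm1, 78.6 in Dnmt3a and 147 and 174 in WT LT-HSC, with a difference of -0.31 (SE 0.30). The region 20.2 kb after the start (chr8:122302307-122303425) held 45.4 in double-mutant, 63.2 and 70.5 in Npm1, 63.9 and 94.6 in Dnmt3a and 118 and 46.7 in WT MPP3, against 109 and 34.9 in double-mutant, 185 and 118 in Npm1, 132 in Dnmt3a and 72.4 and 67.2 in WT LT-HSC, with a difference of -0.54 (SE 0.33). The region 21.3 kb after the start (chr8:122303459-122304626) held 128 in double-mutant, 109 and 74.7 in Npm1, 104 and 109 in Dnmt3a and 131 and 107 in WT MPP3, against 111 and 77.7 in double-mutant, 114 and 116 in Npm1, 153 in Dnmt3a and 209 and 111 in WT LT-HSC, with a difference of -0.19 (SE 0.25). The groups overlapped in these as well, and the third had the difference nearest to 0 of the stretch.

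The regions next to the called one had differences between -1.29 and -0.34, and none was called. The region 25.1 kb after the start (chr8:122307208-122308595) held 33.3 in double-mutant, 62.1 and 50.5 in Npm1, 78.1 and 66.5 in Dnmt3a and 109.5 and 24.9 in WT MPP3, against 112 and 171 in double-mutant, 99.3 and 134 in Npm1, 87.1 in Dnmt3a and 45.8 and 89.3 in WT LT-HSC, with a difference of -0.86 (SE 0.35). The region 28.2 kb after the start (chr8:122310294-122311118) held 22.2 in double-mutant, 25.1 and 29.2 in Npm1, 78.1 and 28.2 in Dnmt3a and 39.2 and 26.5 in WT MPP3, against 40.6 and 121 in double-mutant, 118 and 92.8 in Npm1, 32.1 in Dnmt3a and 42.9 and 63.2 in WT LT-HSC, with a difference of -0.86 (SE 0.43). The region 30.6 kb after the start (chr8:122312707-122313859) held 109 in double-mutant, 53.4 and 52.7 in Npm1, 93.7 and 36.0 in Dnmt3a and 62.2 and 38.7 in WT MPP3, against 147 and 171 in double-mutant, 56.3 and 109 in Npm1, 84.5 in Dnmt3a and 93.3 and 128 in WT LT-HSC, with a difference of -0.66 (SE 0.31). The groups overlapped in all 3, least in the second, where 5 of 7 MPP3 libraries lay below every LT-HSC library. The region 32.1 kb after the start (chr8:122314250-122315991) held 153 in double-mutant, 135 and 116 in Npm1, 145 and 167 in Dnmt3a and 183 and 127 in WT MPP3, against 135 and 225 in double-mutant, 266 and 172 in Npm1, 204 in Dnmt3a and 169 and 154 in WT LT-HSC, with a difference of -0.35 (SE 0.23). The region 35.8 kb after the start (chr8:122317907-122318689) held 58.4 in double-mutant, 56.7 and 59.8 in Npm1, 108 and 139.7 in Dnmt3a and 129 and 72.2 in WT MPP3, against 90.4 and 153 in double-mutant, 126 and 79.0 in Npm1, 102 in Dnmt3a and 105 and 98.3 in WT LT-HSC, with a difference of -0.38 (SE 0.28). The region 36.9 kb after the start (chr8:122319062-122320304) held 108 in double-mutant, 93.7 and 76.1 in Npm1, 124 and 51.8 in Dnmt3a and 68.0 and 81.2 in WT MPP3, against 152 and 189.5 in double-mutant, 205 and 152 in Npm1, 80.3 in Dnmt3a and 88.6 and 87.3 in WT LT-HSC, with a difference of -0.48 (SE 0.27). In each of these, 3 to 5 of the 7 MPP3 libraries lay above the lowest LT-HSC library. The region 39.4 kb after the start (chr8:122321513-122322116) held 25.9 in double-mutant, 37.0 and 69.0 in Npm1, 11.4 and 49.6 in Dnmt3a and 43.8 and 36.1 in WT MPP3, against 160.5 and 86.5 in double-mutant, 111 and 31.6 in Npm1, 139 in Dnmt3a and 72.4 and 52.2 in WT LT-HSC, with a difference of -1.29 (SE 0.41). The region 40.0 kb after the start (chr8:122322145-122323334) held 40.8 in double-mutant, 106 and 63.3 in Npm1, 101 and 54.1 in Dnmt3a and 109.5 and 57.8 in WT MPP3, against 185 and 217 in double-mutant, 164 and 156 in Npm1, 145 in Dnmt3a and 107 and 118 in WT LT-HSC, with a difference of -1.13 (SE 0.27). The region 41.3 kb after the start (chr8:122323415-122325398) held 193 in double-mutant, 182 and 157 in Npm1, 321 and 244 in Dnmt3a and 224 and 199 in WT MPP3, against 213 and 337 in double-mutant, 249.9 and 188 in Npm1, 288 in Dnmt3a and 258 and 349 in WT LT-HSC, with a difference of -0.34 (SE 0.21). The second had the next smallest p of all 199 regions after the called one, with a limma adjusted p of 0.0881, and its MPP3 values overlapped those of LT-HSC through WT replicate A alone. Without MPP3 Dnmt3a replicate A, where 0.576% of all tested regions were called, it was called as well, at an adjusted p of 0.0357 by limma.

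The last stretch included a second region whose cell types did not overlap. The region 46.3 kb after the start (chr8:122328431-122332415) is 3985 bases wide and held 284 in double-mutant, 235 and 284 in Npm1, 186 and 278 in Dnmt3a and 305 and 209.6 in WT MPP3, against 504 and 466 in double-mutant, 367 and 389 in Npm1, 364 in Dnmt3a and 351 and 624 in WT LT-HSC. Every MPP3 library lay below every LT-HSC library, with a log2 difference of -0.71 (SE 0.21, adjusted p = 0.153), which did not pass the limma threshold. The region 50.8 kb after the start (chr8:122332957-122333585) held 31.5 in double-mutant, 75.2 and 58.4 in Npm1, 96.5 and 66.5 in Dnmt3a and 118 and 44.6 in WT MPP3, against 91.4 and 54.1 in double-mutant, 49.7 and 84.9 in Npm1, 54.9 in Dnmt3a and 44.6 and 65.2 in WT LT-HSC, with a difference of -0.03 (SE 0.35). The region 54.5 kb after the start (chr8:122336664-122338758) held 53.7 in double-mutant, 108 and 55.5 in Npm1, 213 and 36.0 in Dnmt3a and 173 and 29.2 in WT MPP3, against 196 and 244 in double-mutant, 285 and 146 in Npm1, 98.0 in Dnmt3a and 75.3 and 201 in WT LT-HSC, with a difference of -1.04 (SE 0.41). The first of these did not differ between the cell types beyond its error, while the second was spread widely within both. Beyond the gene's end, regions 60.6 kb (-0.78, SE 0.23) and 63.0 kb (-0.63, SE 0.25) after the start had adjusted p-values of 0.166 and 0.312. Over all 199 member regions, the groups of 7 libraries did not overlap in 3, of which 2 were lower in MPP3 and 1 was higher. Among all tested regions 0.211% were lower in this way and 0.441% higher.

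Neither Gfi1b nor Nfe2 had a called region between the cell types. Gfi1b had 5 of 7 regions below 0 (median -0.17) and Nfe2 had 6 of 7 above 0 (median 0.27), though without both LT-HSC Npm1 libraries, an alternative chosen after seeing the data, the Nfe2 median turned to -0.15. The strongest Gfi1b region (chr2:28597526-28599957, outside the gene) held 529 in double-mutant, 220.1 and 418 in Npm1, 261 and 472 in Dnmt3a and 310.1 and 459 in WT MPP3, against 414 and 649.7 in double-mutant, 235 and 227 in Npm1, 724 in Dnmt3a and 538 and 549.6 in WT LT-HSC. The cell types overlapped, and the lowest 3 values came from Npm1 cells of both types. A region inside Gfi1b, 2.6 kb after its start (chr2:28618589-28619431), held 79.7 in double-mutant, 125 and 93.2 in Npm1, 73.8 and 120.5 in Dnmt3a and 72.6 and 109.8 in WT MPP3, against 21.3 and 65.5 in double-mutant, 132 and 83.0 in Npm1, 32.1 in Dnmt3a and 23.8 and 15.0 in WT LT-HSC. The lowest 4 values came from WT, double-mutant and Dnmt3a LT-HSC and the highest from an Npm1 LT-HSC library, and the difference was 1.13 (SE 0.35, adjusted p = 0.191) by limma. The Gfi1b region over the start site (chr2:28621315-28622178), which holds most of the promoter given above, had a difference of -0.17 (SE 0.28, adjusted p = 0.839). The strongest region in the Nfe2 window overlaps Cbx5 and Hnrnpa1 (chr15:103239123-103241183) and had a difference of 0.47 (SE 0.20, adjusted p = 0.347). Over the 43 regions of the 3 regulators, 33 were below 0 with a median of -0.35.

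No erythroid region was called between the cell types. Of the 111 regions 48 lay above 0 and 63 below, with a median of -0.05, which turned to 0.07 under scaling to library totals, where the median of all regions was itself 0.13, and to 0.08 with no filter. Of these, 6 had an unadjusted p under 0.05, beside 12.5% of all tested regions. Genes differed among themselves. Ank1, which encodes the ankyrin that anchors the red cell membrane skeleton, had 12 of 14 regions below 0 (median -0.46), and 10 to 13 of them under the scalings and with each library left out. Sptb, the partner spectrin gene, had 8 of 10 below 0 (median -0.14), and Epb41, another skeletal protein gene, had 7 of 11 (median -0.06). The Epb41 region 1.3 kb before its start (chr4:132076564-132078038) had the smallest p of the erythroid list, with a lowest, median and highest signal of 71.0, 259 and 340.0 in MPP3, against 172, 377 and 560.4 in LT-HSC, and a difference of -0.74 (SE 0.23, adjusted p = 0.19) by limma.

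The erythroid transcription factor gene Klf1 had 2 regions above and 2 below 0. Its strongest region, 0.6 kb after the start (chr8:84902599-84904005), held 372 in double-mutant, 313 and 438 in Npm1, 354 and 416 in Dnmt3a and 289 and 456 in WT MPP3, against 214 and 315 in double-mutant, 247 and 194 in Npm1, 442 in Dnmt3a and 532 and 301 in WT LT-HSC. The range of MPP3 lay inside that of LT-HSC, and the log2 difference was 0.23. Bcl11a, which represses fetal-type globin genes, had 11 of 19 regions above 0 (median 0.07), and Sox6, which acts with it, had 4 of 9 (median -0.11). Myb, a factor of immature blood cells, had 7 of 12 above 0 (median 0.15), led by a region 13.9 kb after its start (chr10:21146082-21147089) with 44.0, 118 and 206 in MPP3, against 31.1, 39.6 and 94.3 in LT-HSC as lowest, median and highest (0.97, SE 0.36). That region too met the filter through MPP3, with deposited signals of 31 to 239 in MPP3 and 18 to 82 in LT-HSC. Hemgn, which encodes a nuclear protein of blood progenitors, had 3 of 4 above 0 (median 0.35). The 2 regions of the transferrin receptor gene Tfrc differed by 0.08 and 0.13, and the single region of the iron transporter gene Slc25a37 by -0.48. Genes of red cell membrane proteins lay on both sides of 0. Slc4a1, the anion exchanger gene, had 3 of 5 regions above 0 (median 0.01), Rhd 1 of 4 (-0.44) and Ermap 2 of 4 (-0.05). Icam4 had 3 of 6 above 0 (-0.04) and Epb42 1 of 3 (-0.20). The carbonic anhydrase gene Car2 had 1 of 3 above 0 (-0.03).

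**Figure D3:**
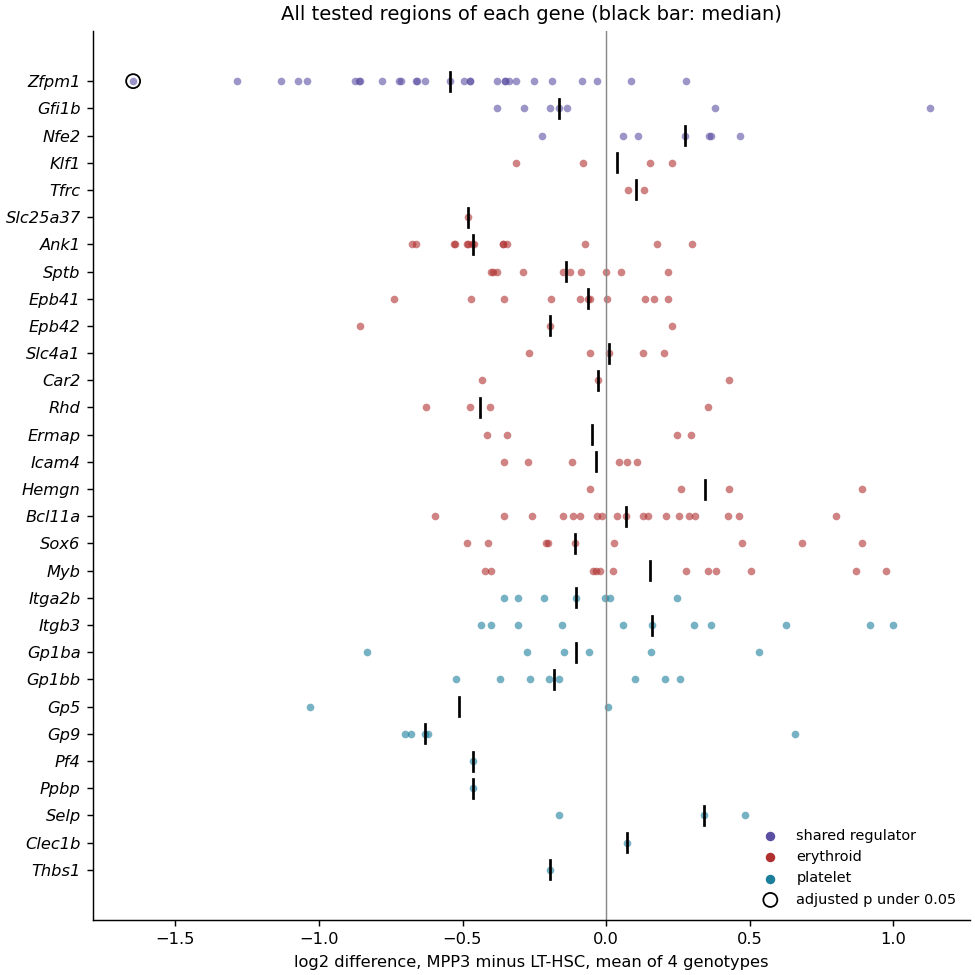
Log2 difference, MPP3 minus LT-HSC, of every tested region (points) of each of the 30 genes, coloured by list, with the median of each gene as a bar. Zfpm1 has 27 of 29 regions below 0 and holds the single called region (circled), while erythroid and platelet genes spread to both sides of 0.

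Platelet genes had 19 of 45 regions above 0, a median of -0.15 (-0.04 under scaling to library totals) and no called region. The region of smallest p was in Itgb3, which encodes the beta subunit of the platelet fibrinogen receptor. Its region chr11:104646212-104647930, inside the gene, held 193 in double-mutant, 208 and 185 in Npm1, 190.2 and 379.6 in Dnmt3a and 271 and 213 in WT MPP3, against 169.6 and 87.3 in double-mutant, 111 and 166 in Npm1, 84.5 in Dnmt3a and 130.4 and 126 in WT LT-HSC. Every MPP3 library lay above every LT-HSC library, the only member region with that order, and the highest value came from a Dnmt3a MPP3 library. The difference was 0.92 (SE 0.24, adjusted p = 0.119), short of the limma threshold, and the adjusted p was 0.0449 without MPP3 Dnmt3a replicate A (0.576% of all tested regions called). Itgb3 had 7 of 11 regions above 0 (median 0.16), while its partner gene Itga2b had 2 of 7 (median -0.11). The strongest region of the Itga2b window overlaps Fam171a2 (chr11:102446018-102448839) and held 323 in double-mutant, 238 and 284 in Npm1, 160.4 and 401 in Dnmt3a and 342 and 302 in WT MPP3, against 445 and 166 in double-mutant, 367 and 338 in Npm1, 351 in Dnmt3a and 462 and 506 in WT LT-HSC, with overlapping groups.

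Gp1ba, Gp1bb, Gp5 and Gp9 encode the 4 chains of the von Willebrand factor receptor, and their start-site regions differed by -0.83, -0.37, -1.03 and -0.62, with none called. The Gp1ba start-site region (chr11:70638442-70639391), which includes the promoter given above, held 128 in double-mutant, 111 and 134 in Npm1, 124 and 73.2 in Dnmt3a and 72.6 and 92.3 in WT MPP3, against 315 and 171 in double-mutant, 82.8 and 116 in Npm1, 244 in Dnmt3a and 264 and 206 in WT LT-HSC. Every LT-HSC library except the 2 of Npm1 lay above every MPP3 library, with a difference of -0.83 (SE 0.25, adjusted p = 0.168) by limma. At Gp5 the start-site region (chr16:30310536-30311050) had a lowest, median and highest signal of 21.4, 54.2 and 71.3 in MPP3, against 41.5, 105 and 145 in LT-HSC (-1.03, SE 0.33, adjusted p = 0.205 by limma). The Gp9 start-site region had 53.4, 103 and 144 in MPP3, against 49.4, 176 and 317 in LT-HSC (-0.62, SE 0.27, adjusted p = 0.345 by limma). Gp1bb, whose strongest region overlaps Septin5 (chr16:18625848-18627832), held 308 in double-mutant, 255 and 275 in Npm1, 443 and 330.0 in Dnmt3a and 322 and 304 in WT MPP3, against 282 and 267 in double-mutant, 338 and 316 in Npm1, 244 in Dnmt3a and 332 and 341 in WT LT-HSC there, and the groups overlapped. Among granule and surface genes, the region shared by Pf4 and Ppbp, which encode platelet chemokines, differed by -0.46, and those of Selp (P-selectin) had a median of 0.34. The single region in the window of Clec1b, the podoplanin receptor gene, lies over Clec12b and differed by 0.07. That of Thbs1, the thrombospondin gene, differed by -0.20.

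Between WT MPP3 and WT LT-HSC alone, no region of the series was called (0%), while 3152 (5.33%), among them 11 member regions, had an unadjusted p under 0.05. Among members the called Zfpm1 region again came first (-1.70, SE 0.47, adjusted p = 0.506 by limma), and the next came from the Gp1ba start-site region (-1.46, SE 0.44) and the Gfi1b region 2.6 kb after its start (2.02, SE 0.63). Every adjusted p among members was 0.506 or more.

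Npm1 LT-HSC differed from WT LT-HSC at 10 member regions, 8 lower and 2 higher. In the whole series 3501 regions (5.91%) were called in this comparison, 2673 lower (4.52%) and 828 higher (1.40%), so the members' share is near the background. At an unadjusted p under 0.05 there were 42 member regions, beside 23.3% of all. The calls came from 4 regions of shared regulators (3 lower), 4 of erythroid genes (3 lower) and 2 of platelet genes (both lower). Regions of high signal were lower across the whole series: among all tested regions with a mean of 500 or more, 97.7% were below 0, the median was -1.09 and 40.3% were called, and among those of 50 to under 100 the median was 0.44. The 12 member regions of 500 or more had a median of -0.91, with 11 below 0 and 5 called, and the 99 of 50 to under 100 had a median of 0.44. The Npm1 LT-HSC libraries held 29.4% and 25.5% of their signal in tested regions, against 56.5% and 40.7% in WT LT-HSC, and the part of this in each call was not tested. Marker sums that did not overlap between these groups were those of stem cell genes (7871 to 8473 in Npm1 and 10063 to 10679 in WT LT-HSC), of myeloid genes (5542 to 6220 in Npm1 and 4490 to 5201 in WT) and of mast cell and basophil genes (725 to 762 in Npm1 and 539 to 679 in WT). In the last list 1 of 10 regions was called, at Hdc, the histidine decarboxylase gene, and it was higher in Npm1 LT-HSC (2.17, adjusted p = 0.0229 by limma). Those 10 regions split evenly, with 5 above and 5 below 0 (median 0.08). Among the other marker lists, 3 stem cell regions and 2 lymphoid regions were called lower. Myeloid genes had 1 region called higher and 1 lower, and niche genes had 1 called higher. Sums of niche genes (4045 to 4457 in Npm1 and 2299 to 4224 in WT) and of lymphoid genes (4357 to 4914 in Npm1 and 4025 to 5511 in WT) overlapped. With 2 libraries in each group, ranges can lie apart without a difference between the groups. Sums over the member lists lay apart too, lower in Npm1 LT-HSC. They were 6012 to 7182 in Npm1 and 9253 to 9674 in WT for shared regulators, and 15180 to 17035 and 17219 to 19064 for erythroid genes. For platelet genes they were 5777 to 5894 and 8446 to 8587. Whether the groups differed in the cells they held was not tested. None of the 10 calls was kept under cyclic loess, where the 1 member region called was another, over the Bcl11a start and higher in Npm1 LT-HSC (1.00, adjusted p = 0.0466 by limma), and none with a covariate for that share. Scaling to library totals gave 30 member calls, all lower, which kept the 8 lower calls and neither of the higher ones. It called 8905 regions of the series (15.0%), so the members' share again lay near the background.

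**Figure D4:**
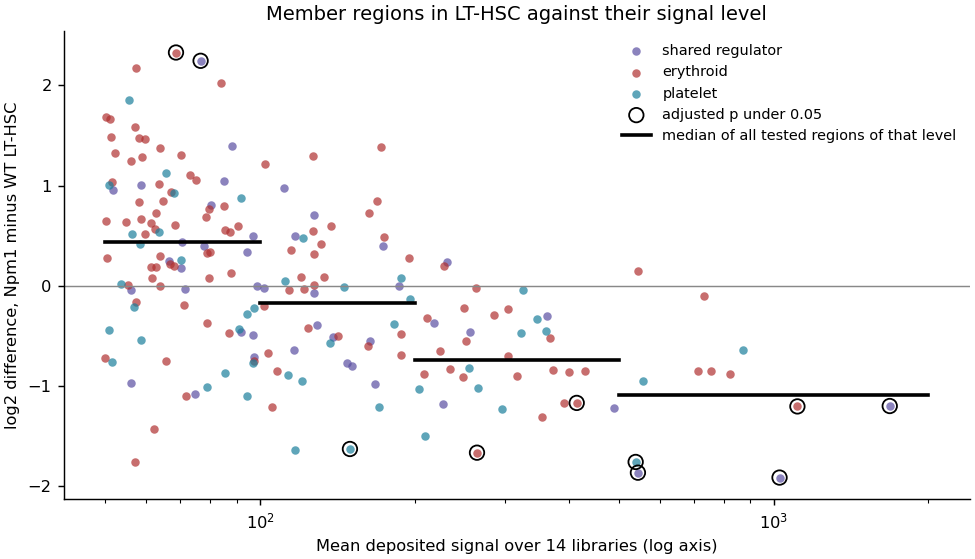
Log2 difference, Npm1 minus WT LT-HSC, of each of the 199 member regions (points, coloured by list) against its mean deposited signal over 14 libraries on a log axis, with the median of all tested regions in 4 classes of signal as black lines; circled regions were called. Member regions follow the medians, which fall to -1.09 in the highest class.

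Among the shared regulators, all 7 Nfe2 regions were below 0 (median -0.76). The Nfe2 region chr15:103257630-103258911, inside the gene, held 212 and 144 in Npm1 LT-HSC, against 638 and 655 in WT LT-HSC, a difference of -1.86 (SE 0.36, adjusted p = 0.0126). The remaining libraries held 389 and 454 in double-mutant and 578 in Dnmt3a LT-HSC, and 554 in double-mutant, 432 and 638 in Npm1, 390.4 and 482 in Dnmt3a and 359.6 and 619 in WT MPP3. The Npm1 LT-HSC values were the lowest of all 14. The region at Cbx5 and Hnrnpa1 in the Nfe2 window (chr15:103239123-103241183) held 364 and 196 in Npm1 LT-HSC, against 1219 and 846 in WT LT-HSC, a difference of -1.91 (SE 0.36, adjusted p = 0.0126). In the other groups the signal was 788 and 739 in double-mutant and 1057 in Dnmt3a LT-HSC, and 1096 in double-mutant, 976 and 1419.8 in Npm1, 569 and 677 in Dnmt3a and 762 and 1320.5 in WT MPP3. Here too the 2 Npm1 LT-HSC libraries were the lowest. At Zfpm1 the start-site region, whose values stand above, was lower in Npm1 LT-HSC, whose 2 libraries were the lowest of all 14, with a difference of -1.20 (SE 0.31, adjusted p = 0.0286) by limma that turned to 0.22 under cyclic loess. Of the 29 Zfpm1 regions 15 lay below 0, with a median of -0.001, and 23 under scaling to library totals, with a median of -0.60. The Gfi1b region 2.6 kb after the start, also given above, was higher in Npm1 LT-HSC, with 132 and 83.0 there and 23.8 and 15.0 in WT LT-HSC, a difference of 2.24 (SE 0.63, adjusted p = 0.0391) by limma. Its deposited signals in LT-HSC were low, with 41 and 15 in WT and 80 and 42 in Npm1, and it met the filter through MPP3.

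Of the called erythroid regions 2 lay outside their gene and over another. The region at Gcdh in the Klf1 window (chr8:84893464-84894308) held 91.0 and 101 in Npm1 LT-HSC, against 357 and 273 in WT LT-HSC, a difference of -1.66 (SE 0.39, adjusted p = 0.0212). Elsewhere it was 216 and 230.5 in double-mutant and 249 in Dnmt3a LT-HSC, and 221 in double-mutant, 174 and 291 in Npm1, 168 and 229.8 in Dnmt3a and 209.8 and 331 in WT MPP3. Its Npm1 LT-HSC libraries were the lowest 2. The region at Maco1 in the Rhd window (chr4:134852223-134854652) held 489.9 and 375 in Npm1 LT-HSC, against 1342 and 733 in WT LT-HSC, a difference of -1.20 (SE 0.34, adjusted p = 0.04). Values in the other groups were 903 and 829 in double-mutant and 1179 in Dnmt3a LT-HSC, and 979 in double-mutant, 1058 and 1320.1 in Npm1, 764 and 986 in Dnmt3a and 937 and 1427 in WT MPP3. The order was the same, and the difference turned to 0.05 under cyclic loess. The Tfrc start-site region (chr16:32608517-32609698), which includes the Tfrc promoter above, held 223 and 184 in Npm1 LT-HSC, against 455 and 465 in WT LT-HSC, a difference of -1.17 (SE 0.35, adjusted p = 0.0491). Outside these groups it reached 399 and 299 in double-mutant and 379.5 in Dnmt3a LT-HSC, and 346 in double-mutant, 351 and 452 in Npm1, 234 and 341 in Dnmt3a and 391 and 525 in WT MPP3. Its Npm1 LT-HSC libraries were again lowest, while 1 of the 2 Npm1 MPP3 libraries lay inside the WT MPP3 range and the other below it. The Bcl11a region 6.2 kb after the start (chr11:24086916-24087648) held 94.3 and 73.1 in Npm1 LT-HSC, against 19.1 and 9 in WT LT-HSC, a difference of 2.33 (SE 0.63, adjusted p = 0.0339). Beyond these, values were 56.9 and 73.4 in double-mutant and 49.9 in Dnmt3a LT-HSC, and 110.2 in double-mutant, 93.7 and 59.8 in Npm1, 96.5 and 71.0 in Dnmt3a and 41.5 and 90.2 in WT MPP3. This region was lowest in WT LT-HSC among all groups, and mutant LT-HSC of every genotype lay above both WT LT-HSC libraries. It is a weak region in LT-HSC, with deposited signals of 33 and 9 in WT and 57 and 37 in Npm1 LT-HSC. In MPP3 these ran from 36 to 170, and the limit of 50 applied to the mean over both cell types (68.6). Over all 111 erythroid regions the median was 0.19, with 65 above 0, though the median was -0.41 under scaling to library totals, which moved the median of all regions to -0.57, -0.001 with the covariate for the share in tested regions and -0.95 with no filter. The summed signal of these regions went the other way, with 17035 and 15180 in Npm1 LT-HSC and 19064 and 17219 in WT LT-HSC.

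Platelet genes had 32 of 45 regions below 0 in Npm1 LT-HSC, with a median of -0.44 (-1.01 under scaling to library totals). The Selp region 19.8 kb after the start (chr1:164135035-164136579) held 141 and 152 in Npm1 LT-HSC, against 551 and 460.3 in WT LT-HSC, a difference of -1.76 (SE 0.38, adjusted p = 0.0157). For the remaining groups the values were 368 and 601 in double-mutant and 509.6 in Dnmt3a LT-HSC, and 563 in double-mutant, 626 and 599.9 in Npm1, 238 and 529 in Dnmt3a and 474 and 657 in WT MPP3. In LT-HSC the Npm1 values were far below all others, and in MPP3 the Npm1 values lay between the 2 WT values. The Gp9 start-site region (chr6:87777565-87778314), which includes the Gp9 promoter above, held 99.3 and 49.4 in Npm1 LT-HSC, against 159.9 and 317 in WT LT-HSC, a difference of -1.63 (SE 0.48, adjusted p = 0.0465). The other groups held 185 and 176 in double-mutant and 216 in Dnmt3a LT-HSC, and 144 in double-mutant, 53.4 and 94.7 in Npm1, 115 and 85.6 in Dnmt3a and 104 and 103 in WT MPP3. The lowest LT-HSC values were those of Npm1, and the MPP3 libraries ran from 53.4 to 144. The region shared by Pf4 and Ppbp had a difference of -1.50 (SE 0.46, adjusted p = 0.0528) by limma.

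**Figure D5:**
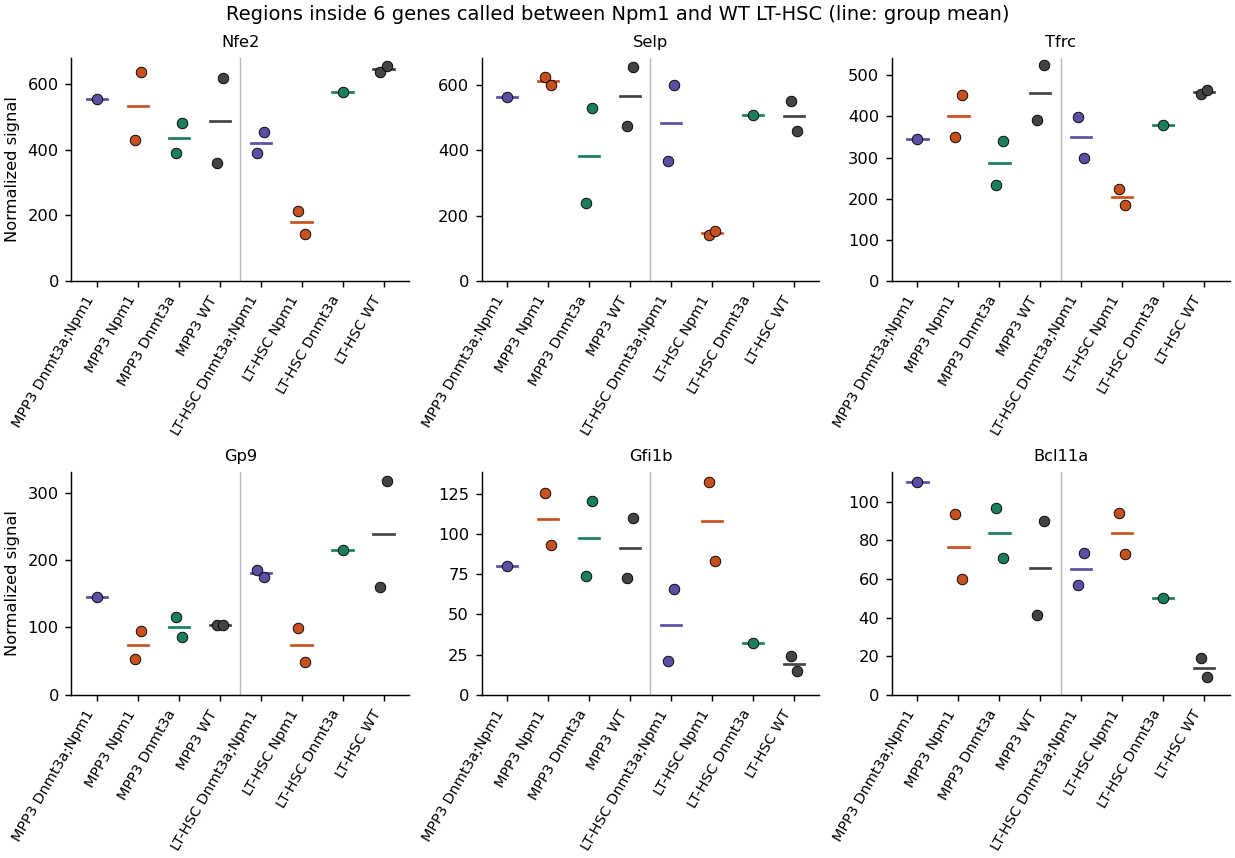
Normalized signal of each library (points) and group means (lines) at 6 called regions that lie inside a member gene, with MPP3 groups left of LT-HSC groups. Npm1 LT-HSC is lowest at Nfe2, Selp and Tfrc, and WT LT-HSC is lowest at Gfi1b and Bcl11a.

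These calls rested on few libraries. No member region was called without LT-HSC WT replicate A, where 0.644% of all tested regions were called, or without LT-HSC Npm1 replicate B (0.323% of all). There were 3 member calls without LT-HSC WT replicate B (1.59% of all), 5 without LT-HSC Npm1 replicate A (3.55%), 5 without MPP3 Npm1 replicate A (3.46%) and 5 without MPP3 Npm1 replicate B (3.25%). There were 15 without MPP3 Dnmt3a replicate A (8.17%) and 15 without MPP3 Dnmt3a replicate B (8.07%). The members' calls therefore fell and rose together with those of the whole series, which had 5.91% with all libraries. Each of the 14 libraries was left out once. Both called Nfe2-window regions were called in 12 of the 14 fits, the Zfpm1 start-site and Selp regions in 11, the Klf1-window region in 10, the Bcl11a region in 8, the Gfi1b region and the Rhd-window region in 7, the Gp9 region in 5 and the Tfrc region in 4. The Nfe2 region inside the gene had a difference of -2.14 to -1.59 over these fits and an adjusted p of 0.00936 to 0.0908 by limma. The Rhd-window region had -1.64 to -0.69, with the value nearest to 0 and the highest adjusted p (0.439 by limma) without LT-HSC WT replicate A. The Gp9 region had -2.11 to -1.14, with an adjusted p of up to 0.328 by limma.

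No member region was called for any other genotype. In double-mutant against WT LT-HSC 2 regions of the series were called (0.00338%), and 11 members lay under an unadjusted p of 0.05, beside 7.15% of all regions. The smallest p came from Ank1 (2.32, SE 0.67, adjusted p = 0.537 by limma), Epb41 (-2.12, SE 0.64) and the Bcl11a region above (1.98, SE 0.63). The Ank1 and Epb41 regions were weak in 1 of the groups. Deposited signals in LT-HSC were 43 and 13 in WT and 62 and 206 in double-mutant at Ank1. At Epb41 they were 135 and 128 in WT and 13 and 34 in double-mutant. Without double-mutant LT-HSC replicate A, 1 member region was called, in Bcl11a 39.6 kb after its start (-2.24, adjusted p = 0.0499 by limma), beside 0.897% of all tested regions. Dnmt3a LT-HSC had 1 library, which was assumed to vary like the other groups. There the same Ank1 region (2.16, SE 0.82), a region in the Sptb window over Plekhg3 (-2.25, SE 0.86) and the Bcl11a region (1.63, SE 0.77) came first, with adjusted p-values of 1 by limma. No region of the series was called (0%), and 3 members were under an unadjusted p of 0.05, beside 1.83% of all regions. These comparisons share the WT LT-HSC libraries, and no overlap between them is drawn.

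In MPP3, Npm1 against WT had no called region in the series (0%) and no member at an unadjusted p under 0.05, beside 68 of all tested regions (0.115%). The smallest p values were those of a region in the Klf1 window over Dnase2a (-0.56, SE 0.40), 1 in the Gp1ba window over Rnf167 (0.71, SE 0.50) and 1 inside Zfpm1 (-0.69, SE 0.50). Dnmt3a against WT MPP3 had no called region (0%), 5989 at an unadjusted p under 0.05 (10.1%) and 13 such members. The start-site region of Epb41 (-1.03, SE 0.32, adjusted p = 0.362 by limma), a Car2 region (-1.21, SE 0.39) and a Bcl11a region (-1.09, SE 0.36) came first. Without MPP3 Dnmt3a replicate B, 1 member region was called, the Epb41 region 1.3 kb before the start (-1.82, adjusted p = 0.0459 by limma), beside 0.828% of all tested regions. Over the whole series regions of 500 or more had a median of -0.43 in this comparison. Double-mutant against WT MPP3, with 1 double-mutant library assumed to vary like the other groups, had no call in the series (0%) and no member at an unadjusted p under 0.05, beside 283 of all tested regions (0.478%). Regions of Epb41 (-1.26, SE 0.65), Icam4 (1.63, SE 0.93) and Ermap (1.03, SE 0.63) came first.

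Whether a genotype acted differently in MPP3 than in LT-HSC was tested as an interaction, and no region of the series was called for any genotype (0%), while an unadjusted p under 0.05 was found for 6557 regions (11.1%) with Npm1, 2787 (4.71%) with Dnmt3a and 1211 (2.05%) with double-mutant. Of these, 15, 8 and 4 were member regions. For Npm1 the smallest p values among members were those of the Nfe2 window at Cbx5 and Hnrnpa1 (2.14, SE 0.51, adjusted p = 0.312 by limma), inside Nfe2 (2.02, SE 0.50) and in Selp (1.89, SE 0.54), beside differences in Npm1 MPP3 that were not called. Regions of 500 or more had a median interaction of 1.13 over the whole series. For Dnmt3a the smallest p was in the Sptb window over Plekhg3 (3.82, SE 1.10, adjusted p = 0.947 by limma), and for double-mutant at Epb41 (3.13, SE 1.01, adjusted p = 1 by limma).

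Levels can be compared between genes per kb of region. The strongest region of each window averaged 473 per kb in MPP3 and 361 in LT-HSC at Nfe2 (over Cbx5 and Hnrnpa1), 439 per kb in MPP3 and 344 in LT-HSC at Rhd (over Maco1), and 341 per kb in MPP3 and 257 in LT-HSC at Selp. Tfrc had 319 per kb in MPP3 and 291 in LT-HSC, Klf1 had 268 in MPP3 and 228 in LT-HSC, and Zfpm1 had 235 in MPP3 and 227 in LT-HSC. All 6 averages were higher in MPP3, but these are 6 of the 30 genes with a tested region. The strongest regions of the Gfi1b and Itga2b windows, with values given above, averaged lower in MPP3. The LT-HSC averages include the Npm1 libraries, which were the lowest of all libraries at the Nfe2, Rhd, Selp, Tfrc and Zfpm1 regions. The part of these libraries in the averages was not tested. Across the series 10.7% of regions of 500 or more and 32.4% of those of 200 to under 500 were below 0 between the cell types. Of the 12 member regions of 500 or more, 10 were above 0, with a median of 0.14, against the series median of 0.21. At the low end stood Slc4a1 with 48.4 per kb in MPP3 and 58.0 in LT-HSC. At the Zfpm1 start-site region the normalized signal, not per kb, averaged 1493 ± 311 in MPP3 and 1438 ± 473 in LT-HSC (SD, n = 7 libraries each). The 7 libraries come from 4 genotypes, so each SD mixes differences between genotypes with the spread between replicates. In LT-HSC the Npm1 libraries held 975 and 715, against 1400 to 2090 in the others. The order of genes was not tested.

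Other genes of the pathway were read from lists of 12 regulators such as Gata1, Gata2 and Tal1, 30 further erythroid genes such as those of globins and haem synthesis, and 23 further platelet genes. Between MPP3 and LT-HSC the regulators had 66 of 153 regions above 0 (median -0.08) and none called, the erythroid genes had 35 of 84 (median -0.05) with 1 called lower, and the platelet genes had 59 of 137 (median -0.09) with none called. The called region was at Tspan33, a tetraspanin gene (-1.76, SE 0.32, adjusted p = 0.0268 by limma). The regulator region of smallest p was at Cbfa2t3, which encodes a corepressor that binds the TAL1 and GATA1 complex (-1.43, SE 0.30, adjusted p = 0.0545 by limma), and the platelet one was at Bin2 (-0.86, SE 0.19, adjusted p = 0.0744 by limma). In Npm1 against WT LT-HSC, 6 of the 153 regulator regions (4 lower), 6 of the 84 erythroid regions (5 lower) and 4 of the 137 platelet regions (all lower) were called, shares that lie around the 5.91% called over all tested regions.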

How the data were processed

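ATAC-seq signal was read from 1 deposited table of 705361 regions (mm10) by 14 libraries. Per the labels and the submitters' processing notes, the authors used DiffBind 2.12.0, edgeR 3.26.4, R 3.6.0 and HOMER 4.10 on mm10, with roles not stated. The deposited signal holds whole numbers, but 8 of 14 libraries lack some whole numbers below 30, as scaling and rounding would leave them, and the other 6 lack none. The values were therefore not taken as raw counts, and the depth is treated as unknown. Regions with a mean of at least 50 (59189) were kept, divided by TMM factors (trimmed mean of M values, computed directly), put on the log2(signal + 4) scale and fitted with limma 3.58.1 in R 4.3.3, with 8 group means and all 14 libraries in 1 fit. Fold changes on this scale understate changes of weak regions. The filter used the mean over both cell types, so some weak regions were kept with a mean under 50 in 1 of them. P-values were adjusted by the Benjamini-Hochberg method over all regions. Values in every library were given for regions inside Zfpm1, called member regions and the strongest region of 5 genes, and with fewer than 5 calls the 3 of smallest p were named. Gene bounds came from RefSeq. The members and lists were chosen with earlier results of these data known. Alternatives were the filter, pseudocount, scaling, an enrichment covariate, a replicate block and each library left out. Replicate letters were not treated as pairs in the reported fit, and whether they pair samples was not established.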

Additional observations from a re-analysis of the deposited data

How the results depend on the processing

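Between MPP3 and LT-HSC, 1 member region was called, beside 0.139% of all tested regions. No member region was called with no filter or with the enrichment covariate. Over the 16 fits with an alternative scaling or with 1 library left out, the difference of the called Zfpm1 region was -1.83 to -1.43. Its call was lost without any of several libraries, as given above. For Npm1 against WT LT-HSC, 10 member regions were called. There were 3 at a minimum mean of 100, 3 with no filter and 7 with the replicate block, all among the 10. At the minimum of 100 the 2 higher calls, at Gfi1b (mean 76.6) and Bcl11a (mean 68.6), were left out by the filter and not tested. Library totals gave 30, with 8 of the 10 kept and both higher calls lost, cyclic loess gave 1 that was not among the 10, the enrichment covariate gave 0, and leaving out each library gave 0 to 15, beside 0.323% to 8.17% of all regions. Over all tested regions the same comparison gave 3501 calls, 8905 under library totals, 93 under cyclic loess and 0 with the covariate. For double-mutant against WT LT-HSC and for Dnmt3a against WT MPP3, leaving out each library gave 0 to 1 member calls. In Npm1 against WT LT-HSC, cyclic loess reversed the Zfpm1 start-site region (0.22), the Rhd-window region at Maco1 (0.05) and the region over the Bcl11a start (1.00). The causes were not tested. Single-region values were recomputed for all 199 member regions in these 2 comparisons (MPP3 against LT-HSC, Npm1 against WT LT-HSC) and, in each of the other 9, for the 3 of smallest p and any called under an alternative. Of them 8998 kept their side of the threshold and either kept their direction or moved by less than their SE, 98 lost the call, 41 gained it and 255 that were not called changed sign by more. Libraries that shared a replicate letter had correlations of their deviations between -0.3 and 0.43. The lack of read counts means that no counting error could be given.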
